A study of Mus musculus with 4 samples.

Results

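Gene expression of unstimulated RAW264.7 cells was compared between a line labelled Linc-AAM knockdown and a line labelled scramble, with 1 array for each, which are 2 of the 4 arrays of the study. They were chosen as the scanner files whose labels give the medium as DMEM. RAW264.7 cells are an established line of mouse macrophages, bought from ATCC per the labels. Both lines were transfected with an expression vector for an artificial microRNA (pcDNATM6.2-GW/EmGFP-miR), carrying either a scramble insert or one directed against the long intergenic non-coding RNA Linc-AAM. The stably transfected cells were kept under blasticidin selection as bulk cultures, so neither line is a clone, and both cultures compared here spent 4 h in DMEM. The other 2 arrays came from the same lines after 4 h with 50 µg/mL AEPS, a polysaccharide, and they serve below as a second look at the line difference on other arrays.

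Each group held 1 array, and no label names a repeated culture. A difference between the DMEM arrays therefore has no replicate check and no p-value, and the insert, the separate selection of each line and the single culture cannot be told apart as its source. The scanner files and the deposited value table of the series name the lines in opposite ways. For DMEM, the scramble column of the table ranked 55677 probes as the scanner file labelled knockdown did (Spearman rho 1.0 after rounding, across probes, which are not independent), and rho was 0.9689 with the scanner file of its own label. The same exchange held for the column labelled knockdown in DMEM. The values do not show which source is right. Lines are named here as on the scanner files, and with the names of the value table every difference between them takes the other sign. This was so for each of the 170 genes that differed at least 2-fold among the 366 genes taken for description. The target could not be used to check the labels, because 0 gene names on the array hold its name.

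Resting macrophages release small amounts of type I interferon. It acts through the receptor chains Ifnar1 and Ifnar2 and on to transcription factors such as Stat2 and Irf9, and sets a basal level of a large group of antiviral genes, the interferon-stimulated genes. RAW264.7 cells can in addition become osteoclast-like cells, which dissolve bone matrix with acid and proteases, when they are given the osteoclast cytokine RANKL. Vectors of this type rely on Drosha and Dicer, the enzymes that also cut the cell's own microRNA precursors.

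Levels are given as scaled intensity, for which the 75th percentile of each array was set to 100, and differences as log2 of the level on the array labelled knockdown over that on the array labelled scramble. A probe mark of the scanner software, well above background, served as detection. Of 36095 genes or names, 20894 were measured on both DMEM arrays and 2128 on 1 of them, 1844 on the array labelled scramble and 284 on the array labelled knockdown. The array labelled knockdown was the dimmer one, with a 75th percentile of 439.1 against 587.7 before scaling and 53.4% against 58.0% of spots well above background. The part of this in the differences of dim genes was not tested. Over the genes measured on both arrays the median difference was -0.014, and the 5th and 95th percentiles were -0.49 and 0.59.

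A gene was counted as higher or lower when the arrays differed at least 2-fold, or, for a gene detected on 1 array, when a lower limit on the fold did so. For that limit the dim side was set to its own signal or to the dimmest detected probe there, whichever was greater. Such folds carry the words "at least". By this rule 537 of 23022 genes (2.33%) were higher on the array labelled knockdown and 346 (1.5%) were lower. Both arrays measured 345 of the higher and 241 of the lower genes, and the others rest on a bound. Most of them were dim. With the genes ranked by brightness and cut into 3 parts of 7674, the dimmest part held 399 higher and 193 lower genes and the brightest 19 and 33. A difference of at least 8-fold was found for 34 genes upward and 17 downward.

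**Figure D1:**
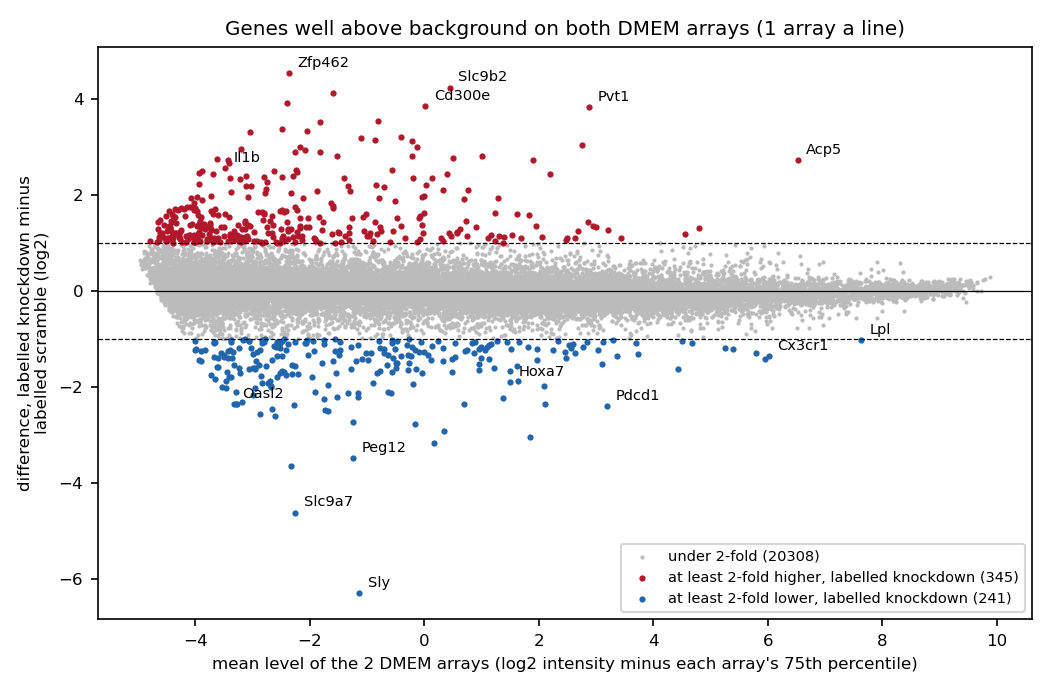
Each point is a gene well above background on both DMEM arrays, with its mean log2 level on the horizontal axis and its log2 difference, labelled knockdown minus labelled scramble, on the vertical axis. Red points (345) and blue points (241) lie at or beyond the dashed 2-fold lines, and they thin out towards bright genes, where Acp5 (2.72) and Pvt1 (3.83) are among the few far above the line.

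Probes of the same gene give a measure of error within the pair of arrays. Over 5381 genes with 2 or more detected probes, the median range between the differences of a gene's probes was 0.216, and none of these genes had probes past 2-fold on both sides of 0. Of 93 such genes beyond 2-fold, all probes had 1 direction in 85 and all reached 2-fold in 55. The spots of probes printed 10 times varied with a median SD of 0.047 (log2) on the array labelled scramble and 0.046 on the array labelled knockdown. These errors cover spots and probes and not cultures.

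The largest upward differences belonged to genes of several unrelated kinds. The zinc finger gene Zfp462 had a scaled intensity of 4.01 on the array labelled scramble and 93.2 on that labelled knockdown, a difference of 4.54. Slc9b2, a sodium-proton exchanger known from osteoclasts, had 31.4 and 590.0, which is 18.8-fold. Prkar2b, a regulatory subunit of protein kinase A, had 7.95 and 139.0, which is 17.4-fold. All 3 were dim to moderate on the array labelled scramble and clearly detected on the other. Only 1 of the 2 probes of Zfp462 and 1 of the 3 of Prkar2b were measured on both arrays. Timp1, an inhibitor of matrix metalloproteinases, went from 4.85 to 73.3 between the arrays, and Cd300e, an activating receptor of myeloid cells, from 26.6 to 383.0. Slc6a4, the serotonin transporter, had 15.4 and 141.0.

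Among other genes of this set, Rab15, a GTPase of endosome recycling, had 8.37 and 95.3, but its 2 probes disagreed, with differences of -0.37 and 3.51. The neighbouring retrotransposon-derived genes Rtl8c and Rtl8b on chromosome X, whose probes lie 60.0 kb apart, had 24.7 and 227.0, and 28.9 and 253.0, although the median over the 3 probes of Rtl8c gave 0.63 against 3.20 for its brightest probe. Gkap1, an anchor of cGMP-dependent kinase, was 8.78-fold higher, and Whrn and Lrmda 10.1-fold and 9.85-fold higher. The value of Whrn rests on 1 of its 2 probes. Genes undetected in the scramble-labelled culture were led by Maged1, a MAGE family gene of chromosome X, at least 30.7-fold higher with a scaled intensity of 74.1 on the other array. Wnt10b, a secreted Wnt ligand, was at least 18.4-fold higher at 47.1. Zar1l, Ranbp3l, Cga and Calb2, also named for their bounds, were not well above background on either array under AEPS. H1f10, a linker histone gene with a bound of 2.88, was detected on both arrays there (3.69 and 14.3, a difference of 1.96).

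Pvt1, a long non-coding RNA gene beside Myc, is shown with the probes that read it, because they differ in size of effect. The probe sequences below are those of the array design, 5′ to 3′, and capitals mark the hexamer AATAAA, which both hold and which is the usual signal for cutting and polyadenylation near the end of a transcript.
Pvt1 probe at chr15:62081020-62081079 (mm9): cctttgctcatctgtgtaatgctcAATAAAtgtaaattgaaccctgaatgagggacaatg
Pvt1 probe at chr15:62082471-62082530 (mm9): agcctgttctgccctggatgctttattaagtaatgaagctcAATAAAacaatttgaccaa

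The first of these Pvt1 probes had a scaled intensity of 196.0 on the array labelled scramble and 2780.0 on that labelled knockdown, a difference of 3.83. The second Pvt1 probe, at the higher coordinates, had 78.4 and 144.0, a difference of 0.88. Both probes were higher on the array labelled knockdown in DMEM, and under AEPS they differed by 3.85 and 0.99. The protein-coding neighbour Myc, whose probe lies 260.0 kb away, had 274.0 and 354.0, a difference of 0.37 that stayed under 2-fold. A match to a hexamer is a description of the probe and shows no cleavage site.

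Lower on the array labelled knockdown were genes that again share no single role. Sly, a Y chromosome gene of spermatids with many near-identical copies, had 403.0 and 5.12, but only 1 of its 5 probes was measured on both arrays, so its value is uncertain. Slc9a7, a sodium-proton exchanger of inner membranes, had 104.0 and 4.22, which is 24.6-fold. Only 1 of the 4 probes of Slc9a7 was measured on both arrays, so its value is uncertain too. Chst7, a carbohydrate sulfotransferase gene whose probe lies 1.54 kb from that of Slc9a7 on chromosome X, had 108.0 and 16.3. By these probes, 1 for each gene, the neighbours were both lower by a wide margin. The zinc finger gene Zfp979 had 70.4 and 5.59, with 1 of its 2 probes measured on both arrays. Peg12, an imprinted gene read from the paternal copy, had 141.0 and 12.6, with its 2 probes at -3.48 and -1.18.

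Genes of signalling in this set included Pdcd1, the inhibitory receptor PD-1, which had 2110.0 and 397.0, and Cd200r1, an inhibitory receptor of myeloid cells, which had 40.6 and 6.65. Map2k6, a kinase that activates p38, had 33.5 and 5.64. Mocos, an enzyme that completes the molybdenum cofactor, had 979.0 and 191.0, and Tmem132a had 348.0 and 46.1. Ppfia4, a scaffold gene, had 339.0 and 37.5 with its brightest probe, while its other probe differed by 0.02. The transcription factor gene Zic2 was 5.14-fold lower.

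Several genes were detected in the culture labelled scramble and not in that labelled knockdown. Igf2bp1, an RNA-binding protein of fetal tissues, had a scaled intensity of 334.0 on the array labelled scramble and was at least 87.7-fold lower on the other. Lin28b, which blocks maturation of let-7 microRNAs, had 58.7 and was at least 15.4-fold lower with its brighter probe, although the median over its probes gave -0.92. Fam149a had 177.0 and was at least 46.5-fold lower, and Hoxb13 had 103.0 and was at least 27.0-fold lower. The aspartic protease gene Ctse had 36.2 and was at least 9.5-fold lower. The only probe named Btg3, placed on chromosome 17 from 50839065 to 50839124 in mm9, had 160.0 and was at least 42.0-fold lower, and which copy of Btg3 it reads is uncertain. The other 13 tested genes of the oncofetal and let-7 target list, such as Igf2bp2 (221.0 and 152.0), did not reach 2-fold.

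**Figure D2:**
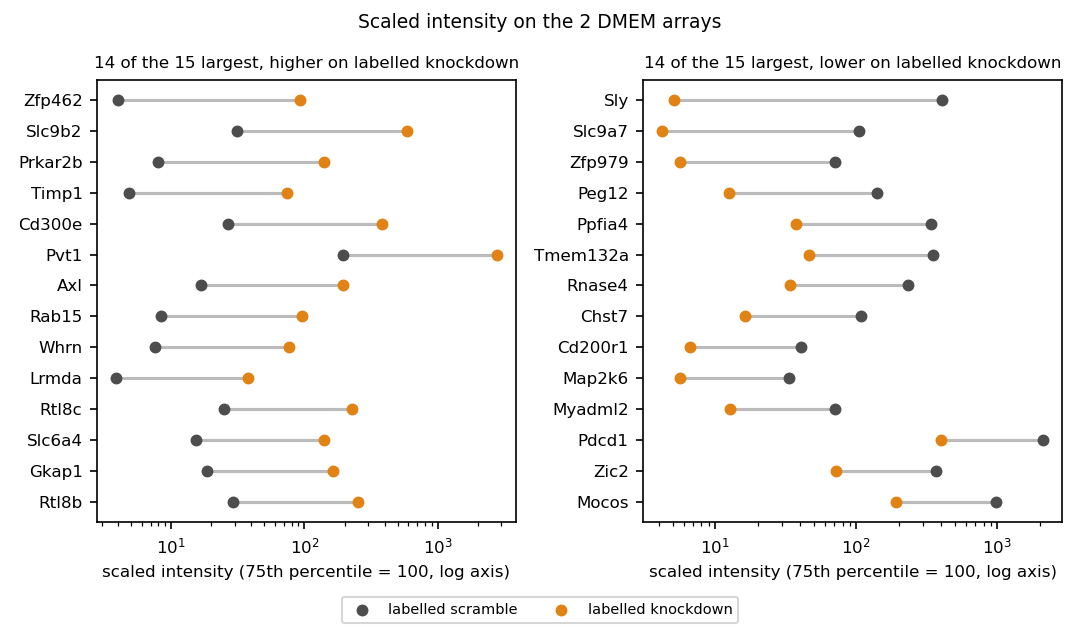
Scaled intensity (log axis, 75th percentile set to 100) of 14 of the 15 genes with the largest upward and 14 of the 15 with the largest downward difference measured on both DMEM arrays, with the array labelled scramble in grey and that labelled knockdown in orange. The pairs are at least 5.13-fold apart, and Pvt1 (196.0 and 2780.0) and Pdcd1 (2110.0 and 397.0) are the brightest.

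Hox genes, which set body position in the embryo and are used again in blood cells, split in both directions. Of 19 compared Hox genes 3 were higher (15.8%, against 2.33% of all genes compared) and 4 lower (21.1%, against 1.5%). Hoxc4 had 13.2 and 92.0, and Hoxc6, 24.9 kb away by its probe, had 3.59 and 23.8, while Hoxa7 had 545.0 and 146.0. The neighbours of the C cluster were thus higher together, but the B cluster held Hoxb13 and Hoxb3 (26.9 and 10.5) among the lower and Hoxb2 (at least 2.08-fold) among the higher genes, and Hoxb4 (179.0 and 216.0) and Hoxb7 (590.0 and 722.0) stayed under 2-fold.

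Of 46 compared interferon-stimulated genes 20 (43.5%, against 1.5% of all genes) were at least 2-fold lower in the culture labelled knockdown and 0 higher. Of 46 differences 44 were below 0, against 12398 of 23022 over all genes compared. The median was -0.86, against -0.03 over all genes compared. Oasl2, a relative of the oligoadenylate synthetases, had 22.7 and 4.40, which is 5.15-fold. Ifit1, which binds viral RNA caps, had 26.0 and 6.38. Rsad2, whose product viperin blocks viral replication, had 18.2 and 4.49, and Ifit3 had 17.9 and 5.18. These leading members were dim on both arrays. Brighter members differed too, among them Ifi27l2a (8670.0 and 3530.0), Isg15, the ubiquitin-like modifier (319.0 and 142.0), Ifi44 (320.0 and 122.0), Parp14 (249.0 and 77.3) and Xaf1 (111.0 and 42.1). The synthetase gene Oas1b (4240.0 and 4510.0) and Tor3a (876.0 and 857.0) lay within 10% of each other. With the normexp background 11 members were lower and the median was -0.64. Under that setting the dim leading members stayed under 2-fold, with Oasl2 at -0.97, Ifit1 at -0.91, Rsad2 at -0.59, Ifit3 at -0.64, Cmpk2 at -0.78 and Mx2 at -0.91.

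The promoters of 3 lower interferon-stimulated genes are printed as examples, 120 bases up to the transcription start, since this family is known to be read through a shared promoter element. They come from RefSeq in the build GRCm38.p6, read 5′ to 3′ on the strand of the gene. Capitals mark the motif GAAANNGAAA, the core of the element bound by interferon regulatory factors, or its reverse complement, and overlapping matches run together. Isg15 was chosen for printing after its values were seen.
Ifit1 chr19:34640769-34640888, plus strand: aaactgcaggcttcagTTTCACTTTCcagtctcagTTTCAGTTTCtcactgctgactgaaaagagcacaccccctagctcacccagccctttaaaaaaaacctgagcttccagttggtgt
Rsad2 chr12:26456453-26456572, minus strand: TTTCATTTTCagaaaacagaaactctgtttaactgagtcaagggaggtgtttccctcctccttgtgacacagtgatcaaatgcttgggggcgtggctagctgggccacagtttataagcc
Isg15 chr4:156200819-156200938, minus strand: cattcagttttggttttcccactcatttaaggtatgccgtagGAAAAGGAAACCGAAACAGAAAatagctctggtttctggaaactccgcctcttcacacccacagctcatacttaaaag

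The motif was searched on both strands from 250 bases before to 50 bases after the start. It was present in 3.44% of all 32851 promoters and in 3.64% of the 11397 genes compared in DMEM that have a promoter in the table. Of genes lower on the array labelled knockdown, interferon-stimulated ones included, 193 had a promoter in the table, and 25 (13%) held the motif. Of genes higher there 266 had one, and 10 (3.76%) held the motif. Of the 46 interferon-stimulated genes 34 had a promoter in the table, among them 13 of the 20 called lower. The share was 6 of these 13 (46.2%) and 10 of the 21 (47.6%) not called. Within this list the shares were thus close, and a match shows no working site.

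Of 22 genes of interferon signalling, a list that shares members with that of the stimulated genes, 0 were higher and 1 was lower. This was Usp18, a brake on the receptor that is itself induced by interferon (137.0 and 58.2). The share lower was 4.55%, against 1.5% of all genes compared, and rests on this 1 gene. The median of the list was -0.27. The receptor chain Ifnar2 had 1890.0 and 1170.0, Irf9 434.0 and 250.0, Irf7, which amplifies interferon production, 27.4 and 16.5, and Irf8 697.0 and 351.0. Ifnb1, the gene of interferon beta, was not well above background on either array, so its level in these cultures was not measured.

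Sensors of viral RNA were lower in part. Of 23 genes of nucleic acid sensing 3 were lower and 0 higher, and these were the RIG-I-like receptor genes Dhx58 (102.0 and 31.0) and Ifih1 (104.0 and 33.0), and Zbp1 (48.0 and 23.8). Ifih1 rests on its brighter probe, and the median over its 2 probes was -0.39. The related Ddx58, the RIG-I gene, differed by -0.82, and Cgas, the DNA sensor, had 2420.0 and 1490.0. Of 15 guanylate-binding and immunity-related GTPase genes, which attack the vacuoles of intracellular microbes, 3 were lower and 0 higher. These were the immunity-related GTPase genes Igtp (158.0 and 51.4), Irgm2 (54.6 and 19.8) and Irgm1 (292.0 and 127.0), while the guanylate-binding gene Gbp6 had 59.6 and 85.7. Of 22 MHC class I and peptide loading genes 21 had differences below 0, against 12398 of 23022 over all genes compared. The median of the 22 was -0.37. The immunoproteasome genes Psmb8 (1890.0 and 892.0) and Psmb9 (1030.0 and 494.0), which lie 18.5 kb apart by their probes, were the 2 of these beyond 2-fold. Both were lower, which is 9.09% of the list, against 1.5% of all genes compared.

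Of 14 compared proinflammatory cytokine genes 3 were higher (21.4%, against 2.33% of all genes compared) and 0 lower, and 5 differences were below 0. Il1b, the pyrogenic cytokine, had 3.69 and 21.8, a difference of 2.56. Its probe was printed 10 times, and the spots gave 3.72 ± 0.472 (SD over 10 spots) on the array labelled scramble and 21.8 ± 1.05 (SD over 9 spots) on that labelled knockdown, without overlap. Osm, of the interleukin 6 family, had 4.2 and 21.4. Il10, the anti-inflammatory cytokine, had 2.54 and 8.08, and its spots gave 2.63 ± 0.648 and 8.13 ± 0.934 (SD over 10 spots each). Tnf had 627.0 and 1110.0, a difference of 0.82, with spots at 627.0 ± 10.2 (9 spots) and 1110.0 ± 18.4 (10 spots). The dim growth factor gene Csf1, detected at 6.96 in the scramble-labelled culture alone, had a bound of -0.87. Lif had 5.17 and 7.44, and Il15 had 6.64 and 6.16. Il6 was not well above background on either array. The levels of the 3 cytokine genes beyond 2-fold were all at or under 21.8. Those on the array labelled scramble (3.69, 4.2 and 2.54) were close to the detection limit.

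**Figure D3:**
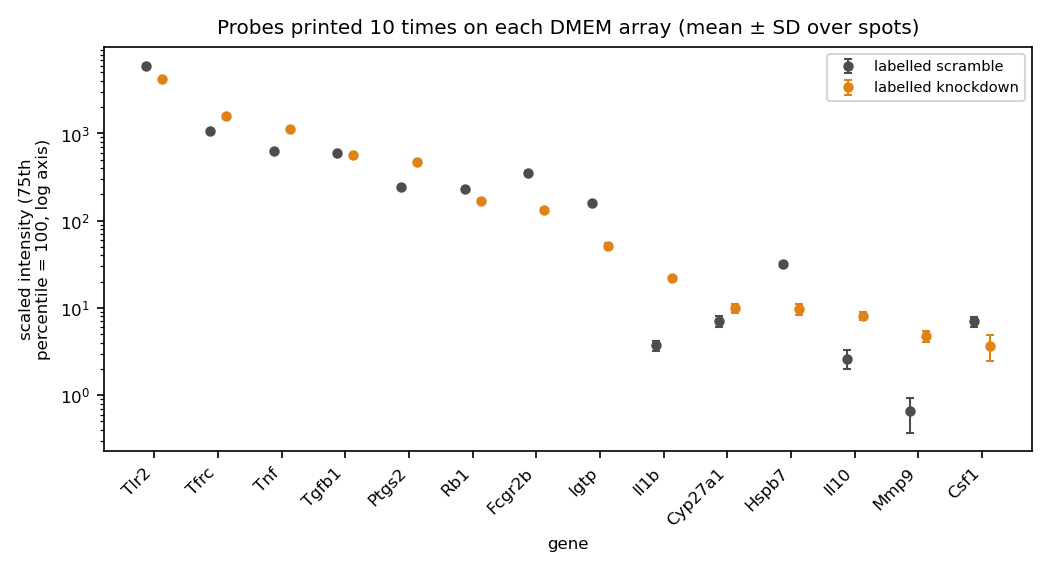
Scaled intensity (log axis) of 14 genes whose probe was printed 10 times on each DMEM array, as mean ± SD over spots that were not outliers. The spread over spots is smaller than the gap between the arrays for Il1b, Igtp, Fcgr2b, Hspb7 and Tnf, and it measures the array and not the culture.

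Of 14 chemokine genes 3 were higher (21.4%, against 2.33% of all genes compared) and 1 lower (7.14%, against 1.5%). The lower one was the interferon-induced Cxcl10, which draws T cells (531.0 and 179.0). The neutrophil attractant Cxcl2 had 12.2 and 27.0, the monocyte attractant Ccl7 13.2 and 27.6, and Pf4 6.89 and 14.4. The largest of these was 2.22-fold, and with the normexp background none of the 3 reached 2-fold (0.81, 0.76 and 0.72). In the list of NF-kB genes and their feedback inhibitors 0 of 23 reached 2-fold in either direction, with Nfkb1 at 145.0 and 247.0 and a median of 0.15.

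Among receptors of cytokines and chemokines, Tnfrsf1b, the second TNF receptor, was 4.79-fold lower (64.8 and 13.5) and Il7r 2.92-fold lower (34.6 and 11.8). These were the 2 lower of 24 cytokine receptor genes (8.33%, against 1.5% of all genes compared), and 0 were higher (against 2.33%). Cxcr4 was detected at 15.6 on the array labelled scramble and was at least 4.08-fold lower on the other. Ccr3, a receptor for eotaxins, was 2.23-fold higher (6.93 and 15.5). Of 10 chemokine receptor genes 1 was higher and 2 were lower, 6 differences were above 0, and the median was 0.20. Tlr13, a sensor of bacterial ribosomal RNA, had 1260.0 and 600.0. It was the only measured one of 29 pattern recognition receptor genes beyond 2-fold, while Nod1, a sensor of bacterial cell walls, was detected on the array labelled knockdown alone (8.91, at least 3.69-fold higher). Each is 3.45% of the list, against 1.5% lower and 2.33% higher over all genes compared. Tlr2 had 5880.0 and 4180.0, with spots at 5880.0 ± 153.0 and 4180.0 ± 51.4 (10 spots each).

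The macrophage character of both cultures was plain from 10 of 12 macrophage markers above background on each array, and 0 of these 10 differed 2-fold. Csf1r, the receptor for the macrophage growth factor, had 44800.0 and 48300.0. Markers of other cell types above background on both arrays included 4 of 7 for neutrophils, 3 of 5 for T cells and 3 of 5 for endothelium. Their summed scaled intensities were 12744.3 and 11894.9 for neutrophils, 774.6 and 830.2 for T cells, and 993.2 and 1127.7 for endothelium. Those of fibroblasts (14.7 and 7.5), dendritic cells (19.5 and 16.3), B cells (16.1 and 12.7) and erythroid cells (20.6 and 5.0) were low. Among all these types the 1 marker beyond 2-fold was the erythroid Hba-a1 (-1.79), and the part of other cells in the line differences was not tested. In the wider list of macrophage identity genes 4 of 25 were lower and 0 higher, with a median of -0.36. Among the lower ones were Cybb, a subunit of the superoxide-making oxidase (501.0 and 158.0), the fractalkine receptor Cx3cr1 (10400.0 and 4050.0) and Aif1 (285.0 and 116.0). Lyz2, lysozyme, had 13800.0 and 8090.0.

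Of 17 compared osteoclast genes 3 were higher on the array labelled knockdown (17.6%, against 2.33% of all genes compared) and 0 lower. Of their differences 13 were above 0 and 4 below, and the median was 0.58, or 0.49 over the 15 measured on both arrays. Acp5, the acid phosphatase used to stain osteoclasts, had 3580.0 and 23700.0, a difference of 2.72, and its 2 probes gave 2.72 and 2.75. Ctsk, cathepsin K, which degrades bone collagen, had 55.2 and 163.0. Siglec15, a receptor of osteoclast fusion, was detected at 8.55 on the array labelled knockdown alone and was at least 3.54-fold higher, but reached 0.77 with the normexp background. Car2, which supplies acid, had 3100.0 and 6010.0, a difference of 0.95. The master factor Nfatc1 differed by 0.26, the RANKL receptor Tnfrsf11a (5280.0 and 5070.0) by -0.06, and the fusion gene Dcstamp by -0.30. The receptor and the master factor were thus close to equal on the arrays. The 8 osteoclast markers above background on the array labelled scramble became 9 on that labelled knockdown, where Mmp9 was added (4.68).

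**Figure D4:**
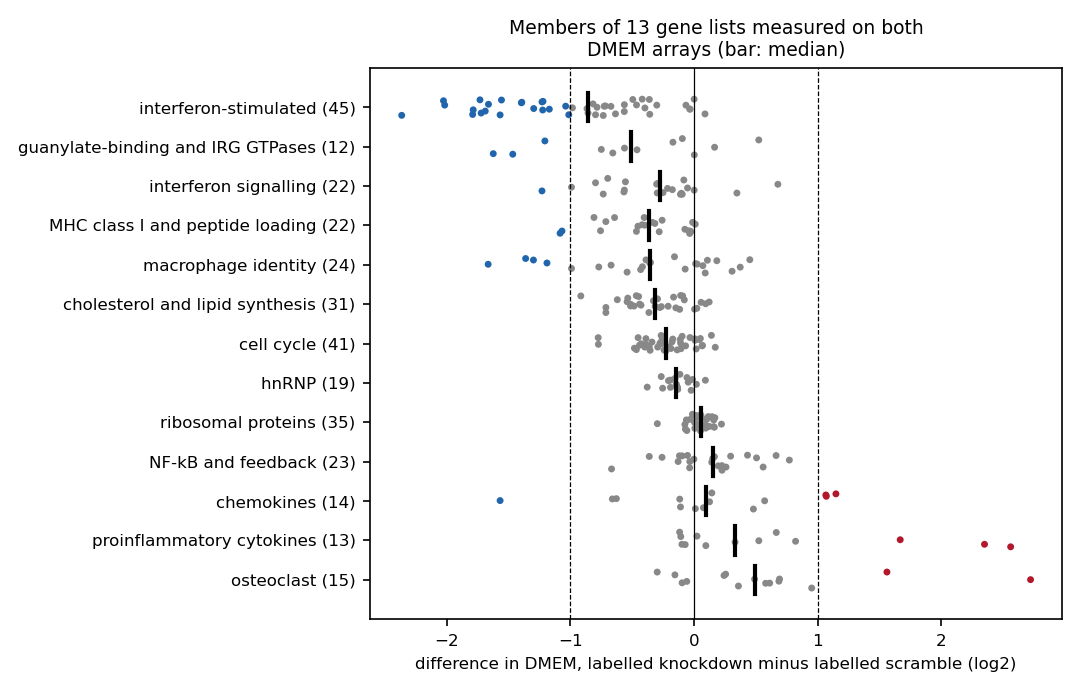
Log2 difference in DMEM, labelled knockdown minus labelled scramble, for members of 13 gene lists measured on both arrays, with the number of members in brackets. Black bars are medians, dashed lines mark 2-fold, and interferon-stimulated genes (median -0.86) and osteoclast genes (0.49) lie at the ends.

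Fc receptors, which bind antibody, were lower in part. Fcgr2b, the inhibitory one, had 356.0 and 134.0, with 10 spots each at 356.0 ± 12.3 and 134.0 ± 4.40. Its activating neighbour Fcgr3, whose probe lies 93.1 kb away on chromosome 1, had 96.3 and 39.0. Sirpb1a had 34.4 and 10.3, with 3 probes between -1.80 and -1.29. In this list of 23 genes these 3 were lower (against 1.5% of all genes compared) and Cd300e was the 1 that was higher (against 2.33%). The median of the list was -0.14, against -0.03 over all genes compared. Of the 3 lower genes only Sirpb1a was called lower under AEPS too (-1.38). Fcgr2b (-0.96) and Fcgr3 (-1.0 after rounding) fell just short of 2-fold there.

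Receptors and ligands for the uptake of dying cells were higher in 3 of 20 cases. Axl, a receptor kinase, had 16.6 and 194.0, and Gas6, the bridging ligand that joins Axl to phosphatidylserine, had 11.5 and 31.3. Abca1, a cholesterol exporter, had 16.3 and 47.3. The other bridging ligand gene, Pros1, went the opposite way with 95.6 and 47.1. In the matrix and protease list Timp2 (9.86 and 31.1) joined Timp1 among the 2 higher of 18 genes (11.1%, against 2.33% of all genes compared).

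Lipid mediators split by enzyme. Ptgs1, the constitutive cyclooxygenase, was 3.87-fold higher (49.5 and 192.0), and Ptgs2, the inducible one, had 246.0 and 468.0, with 10 spots each at 246.0 ± 6.46 and 468.0 ± 14.9. Alox5, which starts leukotriene synthesis, was 2.13-fold lower (261.0 and 122.0), and Ptger4, a prostaglandin receptor, 2.44-fold lower (154.0 and 63.4). Lpl, lipoprotein lipase, was 2.04-fold lower (28300.0 and 13900.0), close to the threshold, and its difference was -0.99 with quantile normalization. Complement genes lay on both sides, with Cfb (19.5 and 5.93) and C1ra (119.0 and 41.7) lower and the protease inhibitor gene Slpi (7.01 and 30.7) higher.

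Among immediate early genes, which respond within minutes to many stimuli, Fosl2 (595.0 and 1440.0) and Nr4a2 (165.0 and 365.0) were higher and Atf3, a stress factor, lower (343.0 and 109.0). Ier3 and Egr1 were just past 2-fold (1.03 and 1.01). Fos, Jun and Dusp1 stayed under 2-fold. Of 31 cholesterol and lipid synthesis genes 0 reached 2-fold, but 26 differences were below 0 and the median was -0.31, with Hmgcs1, an early enzyme of the pathway, at 2960.0 and 1570.0. Of 42 cell cycle genes 0 reached 2-fold, 33 were below 0 and the median was -0.22, with the cyclin genes Ccnb2 (8770.0 and 5130.0) and Ccna2 (3830.0 and 2240.0) at -0.77 each. Over all genes compared, 12398 of 23022 differences were below 0.

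Housekeeping groups were close to equal on the 2 arrays. Of 35 ribosomal protein genes, 30 of the respiratory chain, 19 of the hnRNP family and 17 of the microRNA machinery, 0 reached 2-fold, with medians of 0.06, -0.09, -0.14 and -0.05. Hnrnpl, an RNA-binding protein gene, had 278.0 and 297.0. Genes of the Y chromosome other than the uncertain Sly and Ssty1 stayed under 2-fold, such as Ddx3y (401.0 and 339.0) and Eif2s3y (1110.0 and 958.0). Olfactory receptor genes, which macrophages hardly use, were higher in 13 of 194 cases (6.7%, against 2.33% of all genes compared). They were lower in 1 (0.515%, against 1.5%), and 9 of the higher and the 1 lower rest on a bound. Their scaled intensities did not exceed 22.8, and 3 of the 13 were higher in both media.

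The pair of arrays from AEPS-treated cells shares no array with the DMEM pair, so it shows which line differences recur in the same lines after stimulation. Under AEPS 418 of 22751 genes (1.84%) were higher on the array labelled knockdown and 608 (2.67%) lower. In both media 174 genes were higher, which is 32.4% of those in DMEM and 41.6% of those under AEPS, and 180 were lower, which is 52.0% and 29.6%. The DMEM shares count all 537 higher and 346 lower genes, of which 405 and 291 could be compared under AEPS. Of the 15 largest upward differences in DMEM 14 recurred beyond 2-fold under AEPS, the exception being Cd300e, and of the 15 largest downward ones 13. Of the 10 largest upward bounds 3 recurred, and of the 10 downward ones 9.

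The model of line and treatment fitted to all 4 arrays with limma gives a test of the line difference over both media, with 1 residual degree of freedom. At an adjusted p under 0.05 the line labelled knockdown had 87 higher (0.389%) and 73 lower genes (0.326%) among 22384 tested. The residual degree of freedom is the change of the line difference between media, so the standard error is small for genes with equal differences in both media and large for the others. Pvt1, for example, had an SE of 0.11 and Cd300e, at 3.85 and 0.52 in the media, one of 0.86. The p-values thus hold no spread between repeated cultures. Slc9b2 was higher by 4.33 ± 0.12 (SE; limma adjusted p = 0.021), Pvt1 by 3.84 ± 0.11 (limma adjusted p = 0.021) and Zfp462 by 4.37 ± 0.14 (limma adjusted p = 0.0213). Hoxc4 was higher by 2.79 ± 0.11 and Hoxc6 by 2.75 ± 0.11 (limma adjusted p = 0.0213 each). Tmem132a was lower with a difference of -2.94 ± 0.11 (limma adjusted p = 0.0213), and Hoxa7 with -1.94 ± 0.11 (limma adjusted p = 0.028). Ctsk (1.5 ± 0.12, limma adjusted p = 0.0443) and Gas6 (1.44 ± 0.11, limma adjusted p = 0.0442) passed the threshold, and Acp5 did not (2.28 ± 0.26, limma adjusted p = 0.0822). With the median of a gene's probes in place of the brightest probe, limma called 0 genes in either direction, with 1629 higher and 1382 lower at an unadjusted p under 0.05.

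Of the 20 interferon-stimulated genes lower in DMEM 19 were lower under AEPS as well, the exception being Ifi27l2a at -0.99, and the list had 41 of 48 lower there with a median of -1.76. Oasl2, for example, had 739.0 and 48.3 under AEPS, a difference of -3.94. Over both media its limma adjusted p was 0.105, and whether the line difference depends on the medium was not tested. Of the whole list limma called 2 lower and 0 higher, and these were Dhx58 (-1.73 ± 0.11, limma adjusted p = 0.0327) and Ifih1 (-1.76 ± 0.12, limma adjusted p = 0.0389), whose differences under AEPS were -1.73 and -1.86.

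The 3 higher cytokine genes did not recur. Il1b had 35700.0 and 27900.0 under AEPS, a difference of -0.36, Osm 53.6 and 34.1 (-0.65) and Il10 68.2 and 43.0 (-0.67), each opposite in sign to DMEM. Of the 3 higher chemokine genes, Cxcl2 and Ccl7 were at -0.67 and -0.53, while Pf4 was higher in both media (13.4 and 43.3 under AEPS, 1.69). Whether the difference depends on the medium has no test with 1 array per group. Cd300e had 295.0 and 425.0 under AEPS, so the gap of 14.4-fold in DMEM narrowed to 0.52 on the log2 scale. Of 156 genes with a value in both media among the 170 described beyond 2-fold, 144 kept their sign.

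**Figure D5:**
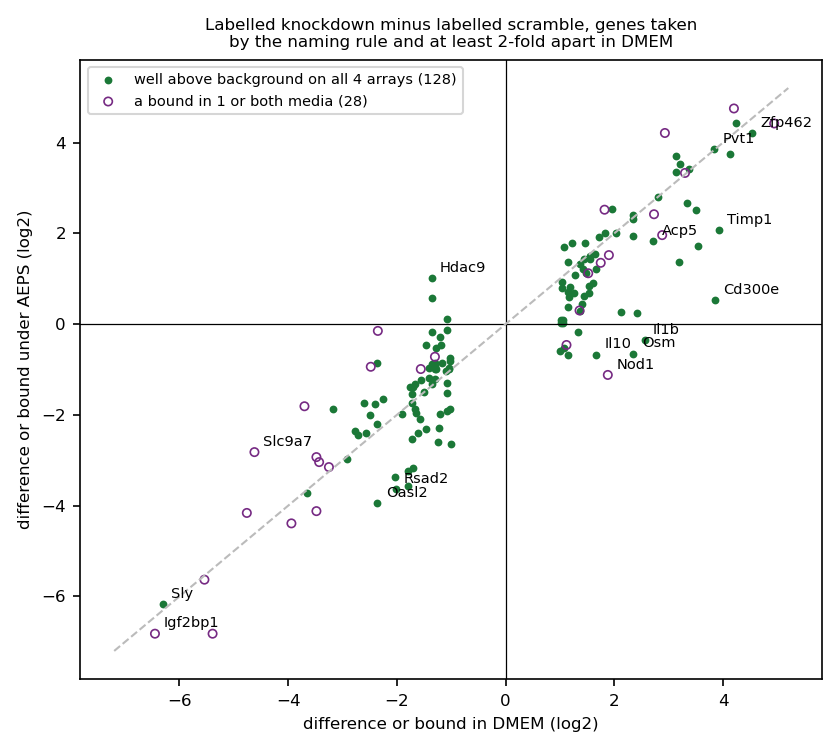
Log2 difference or bound, labelled knockdown minus labelled scramble, in DMEM (horizontal) and under AEPS (vertical) for 156 genes of the naming rule that were at least 2-fold apart in DMEM, with a dashed line of equal difference. Filled points (128) were well above background on all 4 arrays and open points (28) include a bound. Most points lie in the quadrants of equal sign, Il1b, Osm, Il10 and Nod1 lie below the horizontal line, and Hdac9 lies above it.

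Along the genome, in 10 Mb windows of the mm9 coordinates with at least 20 measured genes, the median difference stayed within 0.2 of 0 in all but 8 of 255 windows. The first 30 Mb of chromosome 9 held 3 of the 8. There 137 of 158 genes (86.7%) had a difference above 0, against 47.5% of 20503 genes elsewhere, with a median of 0.31 in DMEM and 0.37 under AEPS. Acp5 lies in this stretch (chromosome 9, probe start 21931190). A window of the same chromosome from 70 to 80 Mb had a median of -0.36 over 65 genes in DMEM and -0.15 under AEPS. The window of chromosome 13 from 40 to 50 Mb held 7 higher and 0 lower genes among 70, with Kif13a, a kinesin (9.86 and 40.3), and Ptpdc1 (16.7 and 84.9) as the largest named, while its median was -0.04. These windows were singled out after their values were seen.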

How the data were processed

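Total RNA of each culture was labelled with Cy3 and hybridised to 1 Agilent mouse array, per the labels. The deposited scanner files hold spot intensity on a linear scale from Agilent Feature Extraction 10.7.1.1, background-subtracted and detrended within each array and not scaled between arrays, per the file headers. The authors also deposited a table in log2 units, with a median of 4.69 in each column and sorted values within 0.0023 of each other. How that table was made is not stated by the labels. The 4 arrays share a slide and a scan.

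From log2 of the processed signal, the 75th percentile of that array was subtracted. Control and outlier spots were left out, spots of a probe averaged, and the probe with the highest mean signal taken for a gene. Of 55681 probes, 26582 were named by accession, 2602 by symbol and 492 by synonym from RefSeq, and 26005 kept the design's name. Calling and limma 3.58.1 (lmFit, eBayes, Benjamini-Hochberg; 22384 genes detected on at least 2 arrays; prior of 2.8 degrees of freedom) were tested on simulated data. R 4.3.3 and Python 3.11.15 were used. The normexp alternative used an offset of 50. The number of arrays limits precision, and p-values hold only the spread between these arrays and media.

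The comparison, the 53 gene lists and the settings were chosen with earlier results of these data known. The naming rule took, among official symbols, the 15 largest differences each way that held with normexp and quantile normalization, the 10 largest bounds each way, up to 6 members per list, 9 defining genes, and genes of the 10 windows with most calls. Some genes of these sets are not reported here.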

Additional observations from a re-analysis of the deposited data

Results flagged for a closer look

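Among genes with an official symbol, 4 were at least 2-fold apart in opposite directions in the 2 media, which none of the report's comparisons tests. Hdac9, a histone deacetylase gene, was lower on the array labelled knockdown in DMEM (136.0 and 53, a difference of -1.36) and higher under AEPS (42.9 and 86.1, 1.01). Nod1 had a bound of at least 1.88 upward in DMEM and of -1.12 under AEPS. Nms, a neuropeptide gene, had bounds of 2.17 and -1.23, and Rsph4a, of the radial spokes of cilia, had 1.75 (3.08 and 10.3) and -1.75 (13.2 and 3.93). Nms, Nod1 and Rsph4a stayed at or under a scaled intensity of 13.2 on each array. The difference between media was not tested, since each group has 1 array.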

How the results depend on the processing

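The sign of each difference depends on which source names the lines. With the value table's names, the medians were 0.86 for interferon-stimulated genes and -0.59 for osteoclast genes, and 257 genes were higher and 313 lower. With detection marks from the matching scanner file, a setting chosen after seeing the data, the medians were the same and 370 genes were higher and 489 lower. In the other settings both medians kept their sign, and that of interferon-stimulated genes moved to -0.64 with the normexp background. Counts of higher and lower genes were 191 and 142 with normexp, 1270 and 1033 with the looser detection mark, 345 higher for genes on both arrays alone, 1361 and 918 at 1.5-fold, and 202 and 135 at 3-fold. Limma called 413 and 308 with normexp, 484 and 629 with scaling to the median, 0 and 0 with the median of a gene's probes or without a filter, 179 and 151 for genes on all 4 arrays, and 579 and 707 with an intensity trend. Of 170 named genes beyond 2-fold, 60 fell under it with normexp, 6 with quantile normalization and 10 with scaling to the median; of 168 with a value, 14 did so and 1 changed sign with the median of probes. The median of probes turned Sly to 0.64, Plagl2 to 0.18, Fzd5 to -0.03 and Tfrc to -0.09, and normexp turned Nlrc4 to 0.05, Uty to 0.08 and the Y chromosome list to 0.08. The cause of these changes was not tested. No paired analysis was possible because each group has 1 array and no replicate number, and the limma fit pairs the lines by medium alone. Signal near background limits what can be said of dim genes such as Il1b, Osm and Il10.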
